A study of Mus musculus with 4 samples.

Results

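Cycling macrophages after infarction are the macrophage-gate cells of 2 mouse heart libraries in which messages of the dividing-cell genes Mki67 and Top2a were read at least 3 times. A cell entered the macrophage gate when it had at least 500 UMIs (distinct RNA molecules read), at most 20% mitochondrial UMIs, at least 1 Csf1r UMI, at least 5 UMIs of Cd68, C1qa, C1qb and C1qc together, and no Pdgfra or Cdh5 UMI. Of the 2274 gate cells in the library labelled Tcf21-MCM/fl and 2893 in the library labelled Tcf21-MCM, 224 and 307 were cycling by this rule. These 531 cells stand among 40438 kept cells of the whole series. They were set against the 1716 and 2153 gate cells with no Mki67 or Top2a UMI, called non-cycling below, while the 268 and 335 gate cells with 1 UMI and the 66 and 98 with 2 UMIs belonged to neither side. Cd68, a lysosomal protein of macrophages, was read in 223 of 224 and in 307 of 307 cycling cells, and C1qa, a subunit of complement C1q, in 172 and 255 of them. The members were chosen by their UMIs of Mki67 and Top2a, with the gate genes, so every cycling against non-cycling value below is a description of cells chosen that way, and no test was run on it.

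Macrophages of the heart come from resident cells that renew themselves in place and from blood monocytes that enter after injury and mature there. Both kinds can divide: signalling through the receptor Csf1r drives their entry into the cycle, E2F factors then switch on the genes of DNA replication, and the MuvB and FOXM1 complexes later switch on the genes of mitosis. Ki-67, encoded by Mki67, coats mitotic chromosomes, and topoisomerase II alpha, encoded by Top2a, untangles replicated DNA; both are made from S phase to mitosis.

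The study asked what the transcription factor TCF21 does in cardiac fibroblasts, by deleting its gene in those cells. Live nucleated interstitial cells were sorted from digested hearts and sequenced by the droplet method in 4 libraries, 1 per group. The first group carried Tcf21-MerCreMer, a tamoxifen-inducible Cre recombinase under the Tcf21 gene, together with a floxed allele, and received tamoxifen and a myocardial infarction. The next carried Tcf21-MerCreMer alone and received the same. The other two groups had these genotypes and tamoxifen but no infarction, and all hearts thus carried the Cre and received tamoxifen. The infarcted hearts were taken after 3 days, and the labels give neither the age nor the number of animals behind a library. The Cre is driven from Tcf21, a gene of fibroblasts, not of macrophages: among cycling macrophages Tcf21 gave 2 UMIs in the library labelled Tcf21-MCM/fl and 3 in that labelled Tcf21-MCM, and MerCreMer gave 0 in each. In fibroblast-gate cells Tcf21 stood at 36.2 CPM of all its UMIs in the infarction library labelled Tcf21-MCM/fl, against 22.6 CPM in that labelled Tcf21-MCM, and without infarction at 148.3 CPM against 92.8 CPM. These 3' tags go against the label, or may lie outside the deleted part, in which case they check nothing. Both libraries are therefore named by their labels throughout, and the animals, the libraries and the genotype cannot be told apart.

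The infarction libraries held 127757911 and 129704045 UMIs over 10873 and 10203 barcodes, with the Tcf21-MCM/fl-labelled library first. They shared 19 barcodes, none of which was cycling in both. Cycling cells were deeper than non-cycling cells, with medians of 30547.5 against 16613 UMIs in the MCM/fl-labelled library and 29001 against 16524 in the MCM-labelled library. Every cell was therefore thinned at random to 5000 UMIs for comparisons of genes, which left 223 and 305 cycling and 1697 and 2128 non-cycling cells. Levels are given as CPM, the UMIs of a gene per 1000000 thinned UMIs of all cells of a kind in a library. Brackets after a log2 ratio give its 95% interval, exact and conditional on the 2 counts, which covers counting error only. Of cycling cells, 14.7% and 13.03% had a high doublet score, against 10.2% and 11.5% of non-cycling cells. The median mitochondrial share was 3.51% and 3.13% in cycling and 3.11% and 3.05% in non-cycling cells. Of 9 marker lists of other cells, B cell markers summed to 109 and 77.4 CPM in cycling and 54.1 and 51.0 CPM in non-cycling cells, T and NK cell markers to 70.9 and 23.0 against 25.1 and 17.3 CPM, and mural cell markers to 56.5 and 140 against 33.8 and 37.9 CPM. Endothelial markers summed to 57.4 and 125 against 112 and 129 CPM, erythroid markers to 23.3 and 1.31 against 178 and 1.97 CPM, and cardiomyocyte markers to 12.6 and 2.62 against 11.8 and 4.42 CPM. Fibroblast markers summed to 395 and 539 against 357 and 327 CPM, dendritic cell markers to 85.2 and 45.2 against 40.5 and 30.1 CPM, and neutrophil markers are given beside the monocyte genes.

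The promoters of mitosis-list and replication-list genes were searched for motifs linked to the 2 waves of the cycle, and 6 of them are printed. They are the 3 mitosis-list and the 3 replication-list genes with the highest cycling CPM among those with 1 listed start site, in the RefSeq window from 250 bases before to 50 bases after the start on GRCm38.p6. Capitals mark 3 kinds of motif, searched on both strands. The first is the CHR element TTTGAA or TTCGAA, bound by the MuvB complexes of mitotic genes. The second is the CCAAT box, bound by NF-Y, and the third is the E2F site, taken as TTTCCCGC, TTTGGCGC, TTTCGCGC or TTTGCCGC. Overlapping motifs of different kinds occurred in 3 of 97 windows. Birc5 encodes survivin of the chromosomal passenger complex, Smc2 a condensin core subunit, and Cenpa the histone H3 variant of centromeres. Pcna encodes the sliding clamp of DNA polymerases, and Mcm3 and Mcm6 subunits of the replicative helicase.
Birc5 (chr11:117848987-117849286, plus strand): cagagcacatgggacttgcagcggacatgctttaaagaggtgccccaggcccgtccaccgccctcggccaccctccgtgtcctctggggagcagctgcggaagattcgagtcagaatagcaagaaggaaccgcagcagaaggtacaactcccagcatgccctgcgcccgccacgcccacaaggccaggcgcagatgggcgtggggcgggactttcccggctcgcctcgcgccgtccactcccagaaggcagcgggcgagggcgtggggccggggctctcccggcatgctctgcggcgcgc
Smc2 (chr4:52438971-52439270, plus strand): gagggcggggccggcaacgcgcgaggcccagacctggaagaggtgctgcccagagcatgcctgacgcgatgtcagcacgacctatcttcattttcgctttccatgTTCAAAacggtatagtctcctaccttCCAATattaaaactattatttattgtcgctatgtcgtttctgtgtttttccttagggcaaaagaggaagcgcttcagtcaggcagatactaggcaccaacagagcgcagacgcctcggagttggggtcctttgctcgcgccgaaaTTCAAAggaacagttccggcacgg
Cenpa (chr5:30666636-30666935, plus strand): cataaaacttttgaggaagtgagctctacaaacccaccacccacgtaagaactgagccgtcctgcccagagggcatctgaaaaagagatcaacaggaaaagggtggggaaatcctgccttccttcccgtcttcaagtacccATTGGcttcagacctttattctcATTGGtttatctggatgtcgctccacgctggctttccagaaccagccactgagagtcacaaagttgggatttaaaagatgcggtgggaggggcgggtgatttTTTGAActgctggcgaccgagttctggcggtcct
Pcna (chr2:132253131-132253430, minus strand): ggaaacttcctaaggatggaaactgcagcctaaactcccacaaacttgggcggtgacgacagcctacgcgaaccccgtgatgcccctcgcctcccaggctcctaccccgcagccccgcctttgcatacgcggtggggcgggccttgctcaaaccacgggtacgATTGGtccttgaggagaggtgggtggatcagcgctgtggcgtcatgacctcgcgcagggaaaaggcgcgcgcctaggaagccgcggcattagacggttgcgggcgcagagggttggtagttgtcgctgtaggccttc
Mcm3 (chr1:20820263-20820562, minus strand): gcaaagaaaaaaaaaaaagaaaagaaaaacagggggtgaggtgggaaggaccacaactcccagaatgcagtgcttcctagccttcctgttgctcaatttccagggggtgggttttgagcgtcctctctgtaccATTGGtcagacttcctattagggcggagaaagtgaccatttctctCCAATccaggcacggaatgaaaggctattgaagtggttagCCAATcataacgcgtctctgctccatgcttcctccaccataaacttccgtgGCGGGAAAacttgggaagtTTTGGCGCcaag
Mcm6 (chr1:128359656-128359955, minus strand): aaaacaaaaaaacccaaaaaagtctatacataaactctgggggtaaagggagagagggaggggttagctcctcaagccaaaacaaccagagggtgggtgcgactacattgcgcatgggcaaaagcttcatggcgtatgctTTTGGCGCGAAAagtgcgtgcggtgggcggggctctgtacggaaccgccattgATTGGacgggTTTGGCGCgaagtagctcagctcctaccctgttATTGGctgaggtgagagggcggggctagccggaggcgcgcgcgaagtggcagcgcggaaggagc
Smc2 held 2 CHR elements and 1 CCAAT box, Cenpa 1 CHR element and 2 CCAAT boxes, and Birc5 none of these letters. Pcna held 1 CCAAT box, Mcm3 3 CCAAT boxes and 2 E2F sites, and Mcm6 2 CCAAT boxes and 3 E2F sites. Of 57 windows of mitosis-list genes (52 of 62 genes matched), 78.9% held a CHR element, 75.4% a CCAAT box and 10.5% an E2F site. Among 40 windows of replication-list genes (35 of 45 matched), 17.5% held a CHR element, 55.0% a CCAAT box and 37.5% an E2F site. The shares over all 32851 windows were 19.2%, 37.4% and 2.26%. A match describes the letters and is no evidence of binding.

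Dividing macrophages made up a like share of the gate in both infarction libraries, with overlapping intervals. By the rule 9.85% of gate cells were cycling in the MCM/fl-labelled library (exact 95% interval 8.66 to 11.1) and 10.6% in the MCM-labelled library (9.51 to 11.8). Without infarction 2 of 273 and 9 of 391 gate cells met the same rule, or 0.733% and 2.30%. Those libraries were shallower, with medians of 9786.5 and 6833 UMIs in non-cycling gate cells, against 16613 and 16524 UMIs after infarction. The shares with and without infarction are thus not matched for depth, and the part of depth in their difference was not tested. Gate cells were themselves 21.9% and 29.1% of kept cells after infarction. The rule reads more cells as cycling where more RNA was read: among gate cells under 10000 UMIs 2.65% and 1.98% passed it, and among those with 30000 or more 27.9% and 26.9%. With every cell thinned to 5000 UMIs before the rule, the shares were 5.30% and 5.23%.

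**Figure D1:**
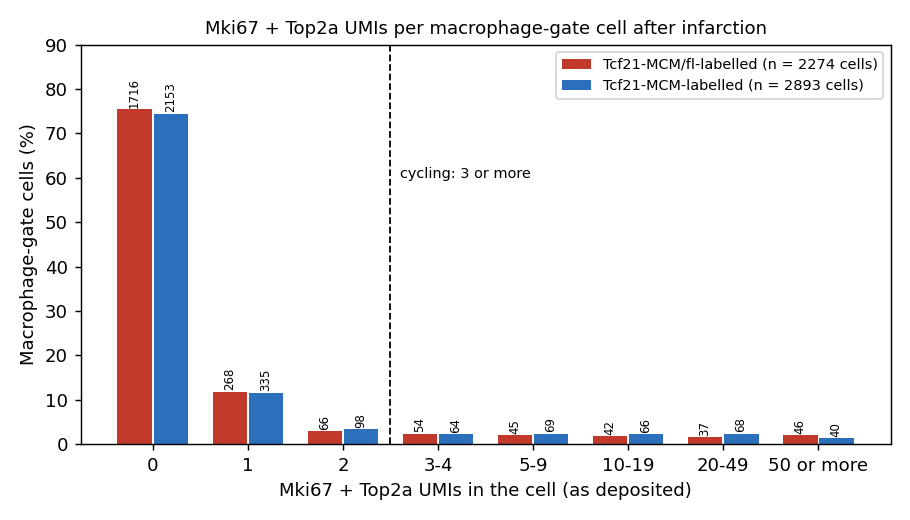
Share of macrophage-gate cells (vertical axis, %) by the number of Mki67 and Top2a UMIs in the cell (horizontal axis), for the library labelled Tcf21-MCM/fl (red) and that labelled Tcf21-MCM (blue) after infarction; numbers above bars are cells, and the dashed line is the cut of 3 UMIs. Most gate cells held no UMI of either gene, and cells over the cut reached 50 UMIs or more in 46 and 40 cells.

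Both rule genes were read over a wide range. The cycling cells held a median of 12 rule UMIs in each library and up to 155 and 136, and 125 and 174 cells held 10 or more. Mki67 was read in 204 and 294 of them, Top2a in 191 and 252, and both in 171 and 239. Just outside the cut, the cells with 2 UMIs had a median of 2 mitosis-list UMIs per 5000 in both libraries. Just inside, cells with 3 or 4 rule UMIs had a median of 4 in both, and cells with 20 or more had 34 and 33. The plot of Mki67 and Top2a UMIs per cell shows no gap at the cut, so cells near it lie on a continuous range.

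The cycling cells held messages of replication and of mitosis, and differed in which list led. Per 5000 UMIs they held a median of 15 UMIs of the 62 mitosis genes in each library, against 1 in non-cycling cells, and up to 98 and 105 against up to 14 and 17. DNA replication genes gave a median of 10 UMIs in both, against 2 in non-cycling cells. Mitosis UMIs exceeded replication UMIs in 125 and 180 cycling cells, replication exceeded mitosis in 91 and 117, and 7 and 8 were equal. In non-cycling cells replication exceeded mitosis in 924 and 1177, mitosis exceeded replication in 451 and 548, and 322 and 403 were equal. A replication lead was thus also common outside the cycling cells, and the lists differ in size, at 62 and 45 genes. Among cells with 5 to 9 rule UMIs replication led, with medians of 11 replication UMIs in each library against 8 and 10 mitosis UMIs. Among those with 10 to 19 mitosis led, with 20 and 16 mitosis UMIs against 5 and 6 replication UMIs. Of the non-cycling cells 25.1% and 25.5% were at or above the lower quartile of the cycling cells for replication UMIs, while 1.94% and 0.705% were so for mitosis UMIs. For replication that lower quartile was 4 UMIs, which was also the upper quartile of the non-cycling cells in both libraries. Only 182 of 1697 and 235 of 2128 non-cycling cells held no replication-list UMI. The replication shares therefore do not tell cells in S phase from a background level.

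**Figure D2:**
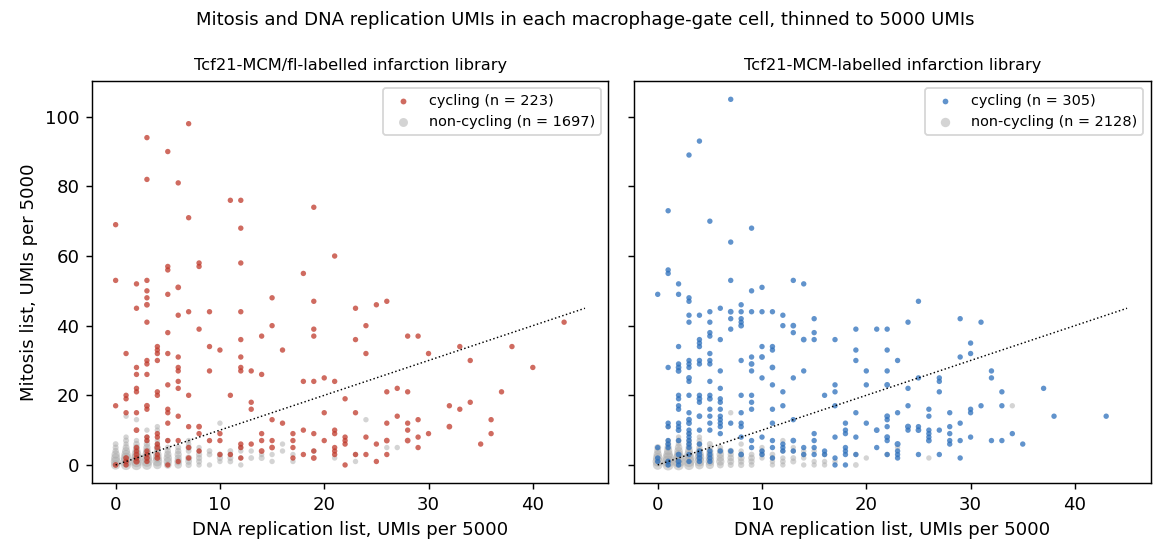
Mitosis-list UMIs (vertical axis) against replication-list UMIs (horizontal axis) in each cell thinned to 5000 UMIs, with cycling cells in colour and non-cycling cells in grey, larger points standing for more cells; the dotted line marks equal counts. Cycling cells spread along both axes, up to 98 and 105 mitosis UMIs and 43 replication UMIs.

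Splitting the cycling cells by which list led showed what differs between the sides. Ccnb1, the cyclin of mitotic entry, stood at 134 CPM in mitosis-led cells and 4.40 CPM in replication-led cells of the MCM/fl-labelled library, and at 107 and 6.84 CPM in the MCM-labelled library. Ccne2, the cyclin of S-phase entry, ran the other way, at 12.8 CPM in mitosis-led against 54.9 CPM in replication-led cells, and at 15.6 against 53.0 CPM in the MCM-labelled library. Hist1h1b, a replication-dependent linker histone, stood at 726 against 147 CPM and at 653 against 222 CPM, so its message was higher in the mitosis-led cells. Mgl2, a galactose lectin receptor placed on the resident list, was lower in mitosis-led cells, at 118 against 248 CPM and at 81.1 against 238 CPM. Of 16 core macrophage genes outside the rule, 0 and 1 were at least 1.5-fold higher and none lower in mitosis-led cells. Over all genes 11.0% and 11.2% were higher and 5.3% and 4.14% lower in this split, which was itself made on cycle genes. Neutrophil markers summed to 2099 CPM in mitosis-led and 624 CPM in replication-led cells of the MCM/fl-labelled library, against 362 and 468 CPM in the MCM-labelled library, and their part in these values was not tested.

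Across all genes, cycling cells were set apart by cell cycle genes on one side and by monocyte genes on the other. Genes were compared where a sum had at least 30 UMIs and 20 CPM, and called higher or lower from a 1.5-fold ratio, which fixes a size and tests nothing. A gene scarce in non-cycling cells, such as Nusap1 below, can pass this filter through the cycling sum alone. Counts of higher genes among those passing, as in the cell cycle lists, are therefore partly set by the filter. In the MCM/fl-labelled library 746 of 5792 genes (12.9%) were higher and 490 (8.46%) lower in cycling cells. In the MCM-labelled library 910 of 5984 (15.2%) were higher and 421 (7.04%) lower; scaled by the median of ratios these were 758 and 557. Of 5593 genes compared in both libraries, 519 were higher in both, 237 lower in both and 3 called in opposite directions.

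Mitotic genes led. Of the mitosis genes passing the filter, 52 of 53 were higher in the MCM/fl-labelled library and 54 of 55 in the MCM-labelled library, with none lower, where 12.9% and 15.2% of all genes were. Their median log2 ratios were 5.22 and 5.29, beside 0.04 and 0.08 over all genes, and their summed level was 12.5-fold and 12.2-fold higher. Nusap1, which bundles spindle microtubules, stood at 103 CPM in cycling and 0.354 CPM in non-cycling cells of the MCM/fl-labelled library, a log2 ratio of 8.19 [6.61 to 10.49]. Its levels in the MCM-labelled library were 86.6 and 0.282 CPM, a ratio of 8.26 [6.68 to 10.56], and 3 non-cycling UMIs lie behind each. Cenpf, a kinetochore protein, had 135 CPM in cycling and 0.825 CPM in non-cycling cells, and 132 and 0.846 CPM in the MCM-labelled library. Pttg1, the securin that holds back sister separation, was the least different, at log2 ratios of 0.20 and 0.74. Bub3, a checkpoint protein with uses outside mitosis, was next at 0.74 and 0.52.

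Cyclins and the kinases they drive came with them. Of these genes 11 of 13 and 15 of 17 were higher and none lower. Over all genes 12.9% and 15.2% were higher and 8.46% and 7.04% lower. Ccna2, the cyclin of S and G2 phase, had 84.3 CPM in cycling and 0.943 CPM in non-cycling cells of the MCM/fl-labelled library, and 93.1 and 0.564 CPM in the MCM-labelled library. Ccnb1 had log2 ratios of 5.77 and 7.14. Cdk6, the kinase of early G1, was within 1.5-fold in both, at 0.14 and 0.01. Among inhibitors and repressors the direction was mixed, with 5 of 11 and 6 of 13 higher and 2 and 1 lower. Cdkn3, a phosphatase that acts on cyclin-dependent kinases and is itself made in mitosis, had ratios of 5.65 and 5.55, and E2f8, an E2F repressor, 4.72 and 3.97. Btg1, an antiproliferative gene, was lower at -0.75 and -0.84, and Cdkn1a, which encodes the inhibitor p21, stood at -0.67 and -0.56, the second of which is under 1.5-fold.

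Replication and nucleotide genes were higher too, by less, where 12.9% and 15.2% of all genes were higher. Of 45 replication genes 32 and 38 passed the filter. All of these were higher, with median log2 ratios of 2.54 and 2.51, and the summed levels of the list were 4.66-fold and 4.65-fold higher. Clspn, the claspin of the replication checkpoint, had 58.3 CPM in cycling against 1.65 CPM in non-cycling cells, and 67.5 against 0.9399 CPM in the MCM-labelled library. Cdc45, part of the active helicase, had ratios of 4.23 and 3.51, while Pold3 of DNA polymerase delta had 1.13 and 0.96. Pclaf, a PCNA-binding protein that was the highest gene outside the cell cycle lists, had 317 CPM against 1.89 CPM and 273 against 2.26 CPM, or ratios of 7.39 [6.67 to 8.21] and 6.92 [6.32 to 7.58]. Nucleotide synthesis genes were higher in 14 of 15 and 15 of 17. Tk1, thymidine kinase, had 80.7 CPM against 2.24 CPM and 76.7 against 2.44 CPM, and Tyms, thymidylate synthase, had ratios of 3.90 and 4.20. Umps, of pyrimidine synthesis, was within 1.5-fold at 0.49 and 0.27.

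Histones, chromatin proteins and repair genes completed the set, where 12.9% and 15.2% of all genes were higher. Of 31 replication-dependent histones 11 and 14 passed the filter, and 11 and 13 of these were higher, with medians of 4.85 and 3.79. Hist1h1b had 468 CPM in cycling and 5.07 CPM in non-cycling cells of the MCM/fl-labelled library, and 484 and 4.79 CPM in the MCM-labelled library. Hist1h1c, a linker histone also made outside S phase, stood at 0.75 and 0.86. These messages mostly lack a poly(A) tail, which the 3' method primes on, and the gene copies are alike, so their levels and their split between copies are uncertain. All 21 chromatin and tubulin genes were higher in both libraries, among them Stmn1, the microtubule regulator stathmin, at 529 CPM against 19.6 CPM and at 596 against 20.9 CPM. Uhrf1, which carries DNA methylation through replication, had ratios of 5.05 and 4.62. Of 20 repair genes 9 and 11 passed the filter, and all of these were higher. Their medians ranged from 1.03 to 3.87 and from 1.53 to 3.74 over the alternatives. Brca1, of recombination repair, had 5.51 and 4.63, and Parp1, a sensor of strand breaks, 0.95 and 1.06.

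**Figure D3:**
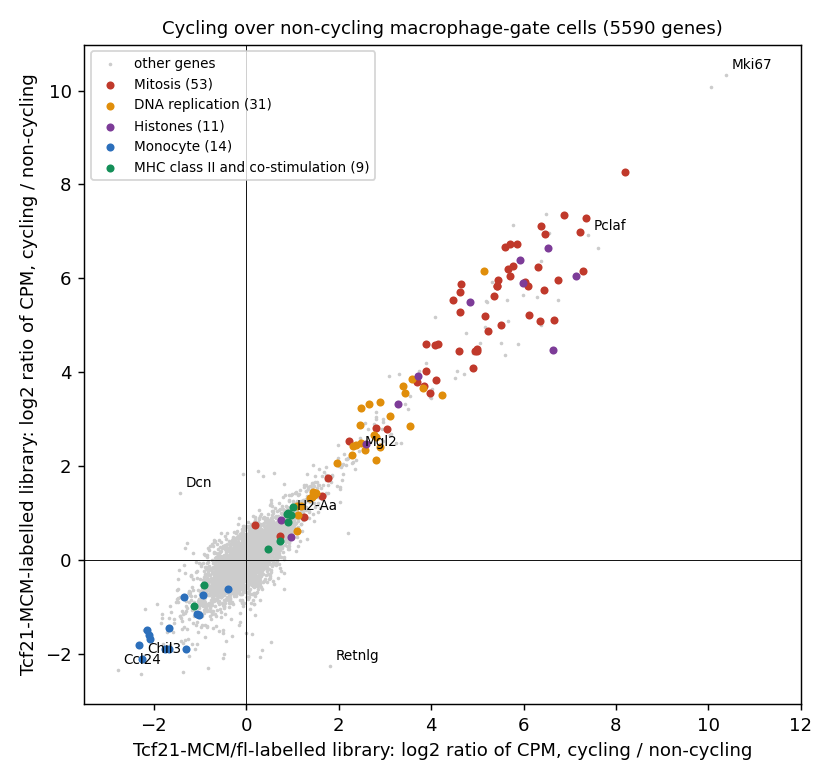
Log2 ratio of CPM, cycling over non-cycling, for each gene in the library labelled Tcf21-MCM/fl (horizontal) and that labelled Tcf21-MCM (vertical), with 5 gene lists in colour and other genes in grey. Mitosis, histone and replication genes run up the diagonal past Pclaf at 7.39 and 6.92, monocyte genes lie at the lower left, Dcn and Retnlg lie off the diagonal, and the rule genes Mki67 and Top2a at the upper right are placed by a floor of 3 UMIs in non-cycling cells.

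Fibroblasts that divided in the same libraries give a yardstick for the cycle itself. In 237 and 275 cycling fibroblast-gate cells (the same cut on Mki67 and Top2a) the mitosis list had medians of 5.48 and 4.34 over non-cycling fibroblasts, with 50 of 52 and 55 of 56 genes higher, where 16.3% and 11.3% of all genes were higher and 19.8% and 10.7% lower. The replication list had medians of 2.31 and 1.72. No test compares these with the macrophage values.

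About as many ribosome biogenesis genes were higher in cycling cells as stayed within 1.5-fold. They were higher in 12 of 25 and 13 of 25, none lower, where 12.9% and 15.2% of all genes were higher, with medians of 0.56 and 0.66 that ranged from 0.19 to 0.63 and from 0.52 to 0.77 over the alternatives. Nap1l1, a nucleosome assembly chaperone, had ratios of 1.25 and 1.18, and Ran, the GTPase of nuclear transport, 1.02 and 1.12. None of 78 ribosomal protein genes passed 1.5-fold, and their medians were 0.18 and 0.20. Among respiratory chain genes 1 of 36 and 0 of 36 were higher, and among proteasome and lysosome genes none passed in either library. Of glycolysis and hypoxia genes 7 of 22 and 5 of 21 were lower, where 8.46% and 7.04% of all genes were, and none higher. Slc2a1, the glucose transporter GLUT1, had 31.4 CPM in cycling against 90.2 CPM in non-cycling cells and 45.2 against 83.7 CPM. Vegfa, a growth factor for vessels, had 19.7 against 62.1 CPM and 17.0 against 59.9 CPM, and Hif1a, the hypoxia factor, had ratios of -1.13 and -0.90.

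Of the 28 lists of genes, monocyte genes stood lowest in cycling cells. Of 14 such genes 13 were lower in the MCM/fl-labelled library and all 14 in the MCM-labelled library, where 8.46% and 7.04% of all genes were, with medians of -1.67 and -1.54. Chil3, a chitinase-like protein of monocytes and neutrophils, had 604 CPM in cycling against 2895 CPM in non-cycling cells, a ratio of -2.26 [-2.37 to -2.15], and 524 against 2248 CPM, or -2.10, in the MCM-labelled library. Thbs1, the matrix protein thrombospondin 1, had 413 against 2040 CPM and 489 against 1699 CPM. Ly6c2, the marker of inflammatory monocytes, had 50.2 against 160 CPM and 34.1 against 126 CPM. Vcan, versican, had ratios of -2.14 and -1.49, and F10, coagulation factor X, -2.09 and -1.58. Ccr2, the receptor by which monocytes leave the blood, differed least, at 375 against 492 CPM and 256 against 391 CPM, under 1.5-fold in the first pair.

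Chil3 is also a gene of neutrophils, so neutrophil values are set beside these genes. Among cells thinned to 2000 UMIs, Chil3 was read in 33.9% and 29.3% of cycling and 65.0% and 63.3% of non-cycling cells, and in 55.3% and 64.8% of neutrophil-gate cells. Unthinned the shares were 63.4% and 58.6% of cycling and 81.6% and 79.9% of non-cycling cells. Neutrophil-gate cells had medians of 2361 and 2202.5 UMIs. Summed neutrophil markers stood at 1438 CPM in cycling and 1250 CPM in non-cycling cells of the MCM/fl-labelled library, and at 397 and 1397 CPM in the MCM-labelled library, beside 74813 and 82279 CPM in the neutrophil gate. Their part in the monocyte genes was not tested. With cells bearing Csf3r, lymphocyte genes or more than 1 collagen I UMI left out, the monocyte medians were -2.02 and -2.28.

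Genes of MHC class II, which show peptides to T cells, stood higher in cycling cells. The 11 genes on that list summed to 10855 CPM in cycling against 5834 CPM in non-cycling cells of the MCM/fl-labelled library, and to 9010 against 4635 CPM in the MCM-labelled library. Of those passing the filter 6 of 9 and 6 of 10 were higher and 2 and 1 lower. Over all genes 12.9% and 15.2% were higher and 8.46% and 7.04% lower. H2-Aa, an alpha chain, had 1729 against 876 CPM, a ratio of 0.98 [0.91 to 1.05], and 1329 against 686 CPM, or 0.95 [0.88 to 1.02]. Cd74, the invariant chain, had 5228 against 2786 CPM and 4425 against 2221 CPM. The lower members were the co-stimulatory genes Cd80, at ratios of -1.12 and -0.98, and Cd86, at -0.91 and -0.52, the last within 1.5-fold. At 2000 UMIs a cell, H2-Aa was read in 39.3% and 36.8% of cycling cells (59.8% and 56.7% unthinned) and in 21.9% and 19.1% of non-cycling cells (39.5% and 36.8% unthinned), against 5.01% and 7.82% of neutrophil-gate cells. The difference shrank under 1.5-fold among cells with fewer than 5 UMIs of Ly6c2, Chil3 and Plac8 per 5000, a restriction chosen after the data were seen: there H2-Aa had ratios of 0.36 and 0.37 and the list medians of 0.34 and 0.38. With the gate applied after thinning, H2-Aa was at 0.47 in the MCM/fl-labelled library and 1.01 in the MCM-labelled library.

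Mgl2, of the resident list, was among the 12 genes furthest above outside the cell cycle lists. It had 170 CPM in cycling and 31.2 CPM in non-cycling cells of the MCM/fl-labelled library, a ratio of 2.45 [2.17 to 2.72], and 147 and 29.3 CPM in the MCM-labelled library, or 2.32 [2.07 to 2.58]. At 2000 UMIs it was read in 13.4% and 10.4% of cycling cells (34.8% and 27.0% unthinned) and in 3.91% and 2.28% of non-cycling cells (9.09% and 5.85% unthinned). In neutrophil-gate cells the share was 0.0822% and 0.477%. Among cells low in monocyte genes the ratios were 1.60 and 1.45, and among cells with at least 5 C1q UMIs 2.47 and 2.37. The resident list as a whole was split, with 3 of 15 and 3 of 14 genes higher (Mgl2 among them), 5 and 6 lower, and medians of -0.09 and -0.24. Over all genes 12.9% and 15.2% were higher and 8.46% and 7.04% lower. Igfbp4, a binding protein of insulin-like growth factors, had ratios of 0.92 and 1.25, while Ccl24, an eosinophil chemokine, had 35.0 CPM against 237 CPM and 27.5 against 139 CPM.

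Core macrophage genes were more often lower than higher. The list of 22 holds 5 genes that the gate reads, and C1qa, C1qb and C1qc made up all but 1 of the 3 and 4 genes that were higher. Of the 17 core genes outside the rule, 1 and 1 were higher and 7 and 9 lower, with medians of -0.57 and -0.60, where 8.46% and 7.04% of all genes were lower. The higher gene was Cx3cr1, the fractalkine receptor, which had 250 CPM against 101 CPM, a ratio of 1.31 [1.11 to 1.502], and 209 against 112 CPM, or 0.90 [0.72 to 1.08]. Cebpb, a factor of inflammatory macrophages, had 877 CPM against 1758 CPM and 845 against 1802 CPM. Gpnmb and Trem2 type genes were lower in 8 of 19 and 6 of 19 and higher in 1 and 2. Gpnmb, a glycoprotein of lipid-laden macrophages, had ratios of -1.24 and -0.71, while Trem2, a lipid receptor, was near even at 0.10 and 0.01. Lpl, lipoprotein lipase, stood at 0.84 and 0.63. Of the clearance genes 2 of 13 and 1 of 13 were higher and 3 and 4 lower, with Mfge8, a bridge to dying cells, at 2.02 and 1.52. Of the repair-type genes 2 of 11 and 3 of 13 were higher and 5 and 5 lower, with Gatm, of creatine synthesis, at 1.59 and 1.36. Growth factor and cytokine receptor genes were lower in 4 of 17 and 5 of 16, and factors of macrophage identity and stress in 4 of 20 and 5 of 20, with none higher on either list. The next lists stand beside 8.46% and 7.04% of all genes lower and 12.9% and 15.2% higher. Sterol and fatty acid synthesis genes were lower in 4 of 11 and 1 of 12, endoplasmic reticulum folding genes in 2 of 15 and 1 of 15, and haem and iron genes in 1 of 12 and 1 of 11, with 1 iron gene higher in the MCM/fl-labelled library.

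Inflammatory genes were lower in 11 of 21 in each library, with 0 and 1 higher. Over all genes 8.46% and 7.04% were lower and 12.9% and 15.2% higher. Cxcl3 was the lowest of the list, at ratios of -2.28 and -2.43. Il1rn, the interleukin-1 receptor antagonist, had 40.4 CPM against 136 CPM and 24.9 against 92.4 CPM, while Tnf, tumour necrosis factor, stood at ratios of 0.54 and 0.70, above 1.5-fold in the second. Interferon-stimulated genes were lower in 7 of 17 and 11 of 17, with 1 and 0 higher and medians of -0.14 and -0.94. Irf7, which amplifies interferon signalling, had ratios of -1.23 and -1.25, and Isg15, a ubiquitin-like protein, -0.88 and -1.65.

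**Figure D4:**
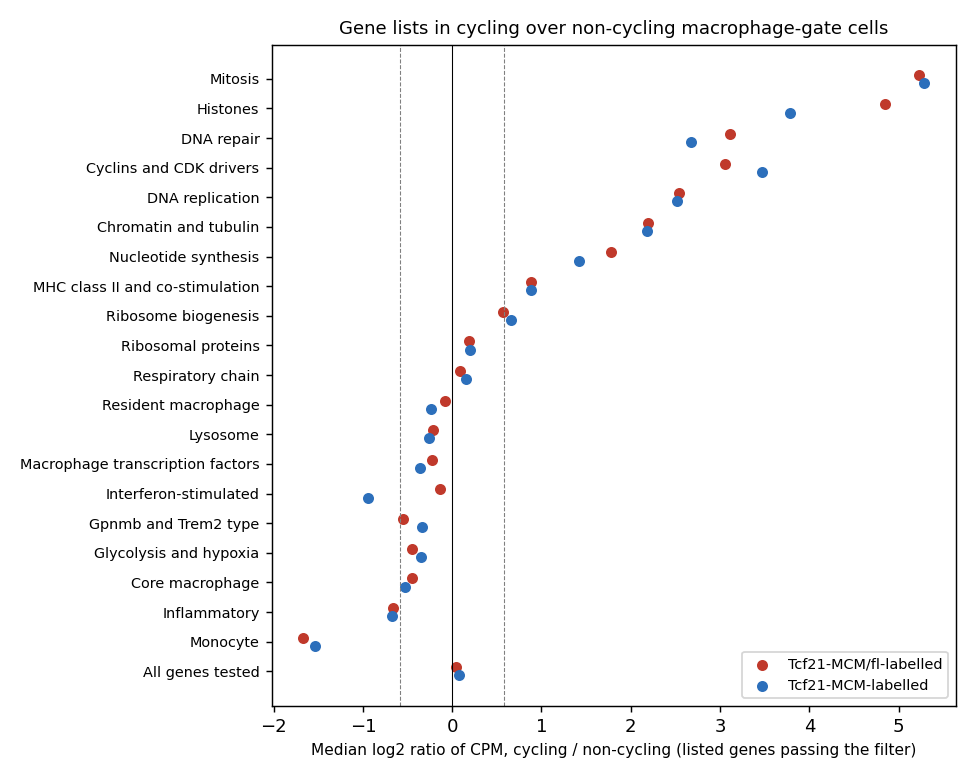
Median log2 ratio of CPM, cycling over non-cycling, over the genes of each list that passed the filter (horizontal axis), for the library labelled Tcf21-MCM/fl (red, upper point) and that labelled Tcf21-MCM (blue, lower point); dashed lines mark 1.5-fold. The 7 cell cycle lists lie at the right, up to 5.22 and 5.29, and the monocyte list lies furthest left at -1.67 and -1.54.

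Shares of cycling cells were then taken over parts of the gate. Of cells with at least 5 UMIs of Ly6c2, Chil3 and Plac8 per 5000, 4.37% (54 of 1236) in the MCM/fl-labelled and 4.47% (66 of 1477) in the MCM-labelled library were cycling, against 16.6% (169 of 1017) and 17.2% (239 of 1388) of the other cells. The exact intervals of the marked cells were 3.30 to 5.66% and 3.47 to 5.65%, and those of the others 14.4 to 19.1% and 15.3 to 19.3%. Cells high in MHC class II (at least 20 UMIs of H2-Aa, H2-Ab1, H2-Eb1 and Cd74) were cycling in 16.5% and 18.99%, against 8.15% and 8.81% of the rest. Mgl2-bearing cells, a split chosen after its values were seen, were cycling in 32.1% (52 of 162) and 33.8% (49 of 145), against 8.18% and 9.41% of the rest. Resident markers (Lyve1, Folr2, Timd4 and Cd163, at least 2 UMIs) made little difference, at 10.1% and 9.25% against 9.86% and 10.8%, and so did Gpnmb with Trem2, at 10.2% and 11.2% against 9.52% and 9.72%. The cycling rule was read on unthinned cells here; monocyte-marked cells had medians of 17278 and 17640 UMIs, against 19835 and 19372 UMIs in the other cells. By the share with any Mki67 or Top2a UMI left after thinning the monocyte-marked cells stood at 7.28% and 6.84%, against 19.4% and 19.96%.

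The cycling cells were not of one kind. Fewer than 5 unthinned UMIs of C1qa, C1qb and C1qc were read in 48 of 223 and 48 of 305 of them, a split chosen after the data were seen. In these cells MHC class II genes summed to 23717 CPM, against 7327 CPM in the 175 cycling cells with more C1q, and to 23217 CPM, against 6356 CPM in 257, in the MCM-labelled library, and all 8 genes passing the filter were at least 1.5-fold higher in each, where 7.16% and 11.6% of all genes were. Dendritic cell markers summed to 279 CPM in low-C1q cells, against 32.0 CPM, and to 142 CPM against 27.2 CPM. The UMIs given for Cd209a, Adgre1 and Lyve1 are totals over 48 against 175 cells, and over 48 against 257 in the MCM-labelled library. Cd209a, a lectin of monocyte-derived dendritic cells, had 48 UMIs in the low-C1q cells and 10 in the others, and 8 and 2 UMIs in the MCM-labelled library. Of the 17 core macrophage genes outside the rule and the split, 11 and 12 were lower and none higher, where 16.6% and 17.7% of all genes were lower. Adgre1, the macrophage antigen F4/80, had 18 UMIs in low-C1q cells, against 175, and 1 UMI against 192. Mgl2 had 246 CPM in low-C1q cells, against 150 CPM, and 275 CPM against 123 CPM. Lyve1, a hyaluronan receptor of resident macrophages, gave no UMI in low-C1q cells and 12 and 26 UMIs in the others. The macrophage label is thus weaker in the markers of these 48 and 48 cells, which were left in the gate as the rule has it. Among cells with at least 5 C1q UMIs, a restriction chosen after the data were seen, the MHC class II medians over non-cycling cells were 0.82 and 0.65, the monocyte medians -0.89 and -0.91 and the mitosis medians 4.90 and 5.02.

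Mitosis and replication genes stood lower in cycling cells high in monocyte genes. The 54 and 66 cycling cells with at least 5 UMIs of Ly6c2, Chil3 and Plac8 had 23 of 46 and 25 of 53 mitosis genes lower and none higher than the other cycling cells, and 13 of 29 and 23 of 33 replication genes lower. Over all genes 14.0% and 13.3% were lower and 5.95% and 8.91% higher in this split. Histones differed less, with 1 of 10 and 2 of 13 lower, 1 and 0 higher and medians of -0.11 and -0.14. The marked cells were deeper, at medians of 36622 and 40348 UMIs against 29553 and 26822 UMIs, and the rule was read on unthinned counts; the part of depth in these values was not tested. Their MHC class II genes summed to 5756 CPM, against 12484 CPM, and to 4546 CPM, against 10243 CPM. Mgl2 had 77.8 CPM in them, against 200 CPM, and 48.5 CPM, against 174 CPM. Neutrophil markers in the same cells summed to 4433 CPM, against 480.5 CPM, and to 809 CPM, against 284 CPM, and their part was not tested.

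Between the infarction libraries most genes of dividing macrophages lay within 1.5-fold, cycle genes among them. In cycling cells 331 of 5785 genes (5.72%) were at least 1.5-fold higher in the MCM/fl-labelled library and 235 (4.06%) lower, against 89 of 5588 (1.59%) and 34 (0.608%) in non-cycling cells, whose sums hold more UMIs. Of the mitosis genes 2 of 55 were higher and none lower, and of the replication genes 1 of 39 was higher and 3 lower. Of the histones 1 of 14 was higher and 3 lower, of the repair genes 2 of 11 were higher and none lower, and of the cyclins and their kinases none of 17 was higher and 1 lower. The medians were 0.14 for mitosis, 0.01 for replication, -0.04 for histones and 0.12 for repair, beside 0.03 over all genes. With 1 library a side these ratios have no replicate check.

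Apoe and Apoc2 were among the genes that stood lowest in the MCM/fl-labelled library. Apoe, a carrier of cholesterol, had 1436 CPM in cycling cells of the MCM/fl-labelled library, against 4696 CPM in those of the MCM-labelled library, a log2 ratio of -1.71 [-1.79 to -1.63]. In non-cycling cells the ratio was -1.49, so both kinds of cell had the lower level. Apoc2, the cofactor of lipoprotein lipase, had 30.5 against 123 CPM, a ratio of -2.02, and -1.50 in non-cycling cells. Gpnmb had 58.3 against 142 CPM, and its list was lower in 7 of 19 genes in cycling and 4 of 19 in non-cycling cells, with none higher. Of all genes 4.06% were lower and 5.72% higher in cycling cells, and 0.608% lower in non-cycling cells. Gdf3, a growth factor of macrophages in regenerating muscle, had 21.5 against 51.1 CPM. Fdps, of cholesterol synthesis, had 33.2 against 68.9 CPM, and 3 of 12 genes of sterol and fatty acid synthesis were lower, with a list median of -0.22 that ranged from -0.49 to 0.64 over the alternatives. Of the scavenger, clearance and lipid efflux genes 1 of 13 was higher and none lower. The feature Gm10260 had 0 UMIs in cycling cells of the MCM/fl-labelled library and 111 in those of the MCM-labelled library, and 0.118 CPM against 67.3 CPM in non-cycling cells.

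Among the genes kept by the naming rule, Ccl8, a chemokine of resident macrophages, stood highest in the MCM/fl-labelled library. Retnlg, a neutrophil gene left out by that rule, had a higher ratio of 4.15 in cycling cells, from 117 and 9 UMIs. Ccl8 had 178 CPM in cycling cells of the MCM/fl-labelled library, against 15.7 CPM in those of the MCM-labelled library, a ratio of 3.50 [2.88 to 4.17]. It was read in 29 and 13 cells, and without the highest cell of each library the ratio was 3.46. In non-cycling cells the ratio was 2.13. At the thinning used for shares of cells, Ccl8 was also read in 2.55% and 0.191% of neutrophil-gate cells. The shares were 6.41% and 4.43% of fibroblast-gate cells, against 8.48% and 4.23% of cycling cells. Unthinned they were 26.8% and 25.4% of fibroblast-gate cells, against 20.5% and 13.7% of cycling cells. The part of these other cells in the Ccl8 ratios was not tested. Within the MCM/fl-labelled library Ccl8 stood at 283 CPM in mitosis-led and 17.6 CPM in replication-led cycling cells. These levels rest on no more than the 29 cells above, with up to 37 UMIs in 1 cell. Neutrophil markers were also higher in the mitosis-led cells of that library, at 2099 against 624 CPM. The MCM-labelled library held only 24 Ccl8 UMIs in cycling cells. Resident genes were higher in 6 of 13 and lower in 1 in cycling cells, and higher in 7 of 15 in non-cycling cells. Over all genes 5.72% were higher and 4.06% lower in cycling cells, and 1.59% higher in non-cycling cells. Mrc1, the mannose receptor, had 544 against 308 CPM, and its ratio of 0.82 compares with 0.95 in non-cycling cells. Cd209a had 52.0 against 6.56 CPM, a ratio of 2.99 [2.01 to 4.12], over 13 and 5 cells, and 0.36 in non-cycling cells. Most of its UMIs in both libraries lay in the low-C1q cycling cells described above, 48 of 58 in the MCM/fl-labelled library. The part of those cells in the Cd209a ratio was not tested. Pira2, an activating immunoglobulin-like receptor, had ratios of 1.36 in cycling and 1.25 in non-cycling cells, and Tmem176b, a membrane protein of dendritic cells and macrophages, 1.19 and 0.50. Ctsk and Slpi, both among the 10 highest kept by the naming rule, rested on single cells. In the MCM/fl-labelled library 53 of 59 Ctsk UMIs and 186 of 403 Slpi UMIs came from 1 cell each. Without the highest cell of each library their ratios were -0.28 and 0.74, against 2.88 and 1.22 with it. Neutrophil markers were also higher in the MCM/fl-labelled cycling cells, at 1438 CPM against 397 CPM, with 6 and 2 cells holding 50 or more such UMIs, and fibroblast markers lower, at 395 CPM against 539 CPM. Their part in the genes of this paragraph was not tested.

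**Figure D5:**
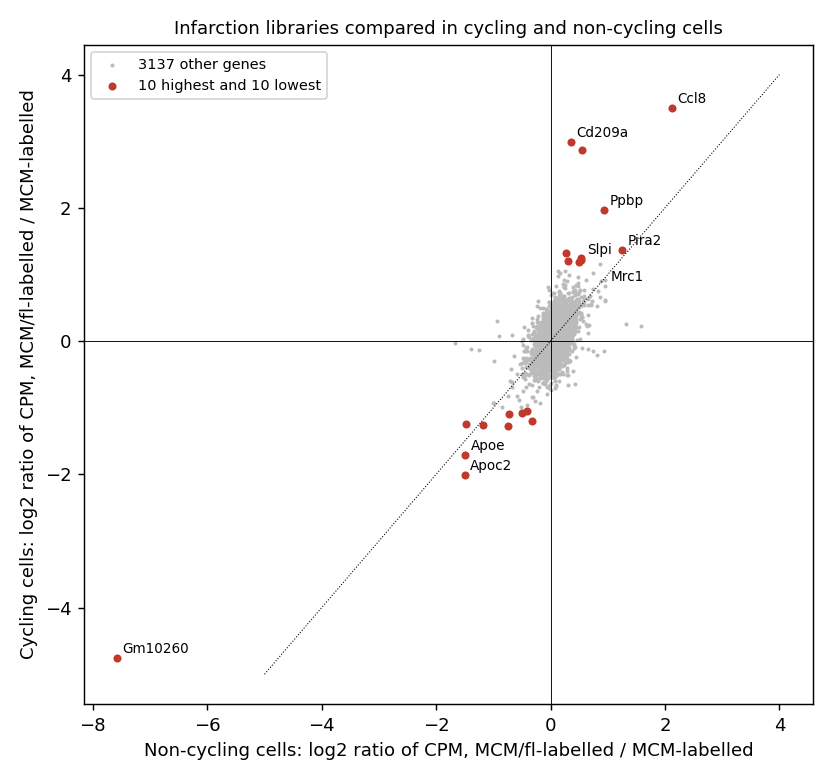
Log2 ratio of CPM, library labelled Tcf21-MCM/fl over that labelled Tcf21-MCM, in non-cycling (horizontal) and cycling (vertical) macrophage-gate cells, for genes with at least 50 CPM in a cycling sum; red marks the 10 highest and 10 lowest in cycling cells, and the dotted line equal ratios. Ccl8 lies at 2.13 and 3.50, Apoe at -1.49 and -1.71, Cd209a is high in cycling cells with 0.36 in non-cycling cells, and the position of Gm10260 is set by a floor of 3 UMIs.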

How the data were processed

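Each library was deposited by the authors as tables of whole-number UMI counts, 1 column per barcode, with 32287 features, 2 of them added sequences (eGFP and MerCreMer). Per the submitters' processing notes the counts were made with Cell Ranger 5.0.1 on mm10; other upstream settings are not given in the sources used here. All 4 libraries were used, with no column left unused (0). The members, gene lists and splits were chosen with earlier results of these data known, and the rule itself reads Mki67 and Top2a. Barcodes were kept at 500 UMIs or more and at most 20% mitochondrial UMIs, and thinned without replacement to 5000 UMIs (2000 for shares of cells) with a fixed seed; 1 and 2 cycling and 19 and 25 non-cycling cells were shallower and left out, with the Tcf21-MCM/fl-labelled library first. UMIs were summed per library and state and scaled to CPM. Sums under 3 UMIs were raised to 3 in ratios. Counting intervals are 95%, exact Clopper-Pearson for shares and conditional binomial for ratios. They cover counting error only: each group has 1 library, so no test was run and no p-value is given. Scripts used Python 3.11.15, numpy 2.4.6, scipy 1.17.1, pandas 2.3.3 and scanpy 1.11.5, and the ratios were tested on simulated data.

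Possible doublets were scored with Scrublet in scanpy. Its own threshold marked 2 and 0 of 10361 and 9956 kept cells and so had not worked; the 901 and 813 highest scores, at an assumed 0.8% per 1000 barcodes, were taken as possible doublets and removed only in an alternative. Named genes were, per list, up to 3 highest and 2 lowest by mean log2 ratio among members passing the filter in both libraries, and, outside the cell cycle lists, the 12 highest and 12 lowest at 50 CPM or more. Between libraries they were the 10 highest and 10 lowest at 50 CPM and 30 UMIs, without genes whose cycling CPM was under 0.1 of that in another gated cell type, with members of lists added. Ly6a2 and Clec7a had no match in the feature list. Genes outside this rule were chosen after their values were seen: Adgre1, Lyve1 and the genes of the splits within cycling cells. Promoter windows are from RefSeq tables on GRCm38.p6, the build behind mm10, matched by symbol. The baseline libraries served for counts of gate cells and for Tcf21.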

Additional observations from a re-analysis of the deposited data

Results flagged for a closer look

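In 3 genes the cycling over non-cycling ratio passed 1.5-fold in opposite directions in the 2 infarction libraries; the difference between libraries was not tested. Dcn, decorin of fibroblasts, had log2 ratios of -1.43 in the Tcf21-MCM/fl-labelled library (8.07 CPM in cycling, 21.7 CPM in non-cycling cells) and 1.43 in the Tcf21-MCM-labelled library (23.6 and 8.74 CPM). Retnlg, a neutrophil gene, had 1.82 (105 CPM in cycling, 29.8 CPM in non-cycling cells) and -2.25 (5.90 and 28.0 CPM), over 10 and 6 cycling cells. Hbs1l, a ribosome rescue factor, had 0.815 (33.2 CPM in cycling, 18.9 CPM in non-cycling cells) and -0.614 (16.4 and 25.1 CPM). Summed fibroblast markers in cycling cells stood at 395 and 539 CPM and neutrophil markers at 1438 and 397 CPM in the same order of libraries, and their part in Dcn and Retnlg was not tested.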

How the results depend on the processing

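No paired analysis was possible because only 1 library stands for a group. The cycling share of the gate moved with the cut and with depth, in the order Tcf21-MCM/fl-labelled, then Tcf21-MCM-labelled: 12.8% and 14.0% from 2 rule UMIs, 7.48% and 8.40% from 5, and 5.30% and 5.23% with the gate applied after thinning. Counts of genes past the fold moved by over 1.5 times as follows, with genes lower in cycling cells as pairs in that order. With the gate after thinning 828 and 657 genes were lower in cycling cells and 164 higher between libraries. Under the stricter gate 747 were lower in the MCM/fl-labelled library and 155 higher between libraries. Thinning to 2000 UMIs gave 632 lower in the MCM-labelled library and 158 higher between libraries, and thinning to 10000 UMIs 136 lower between libraries. Without thinning 271 and 254 were lower, and 134 higher and 74 lower between libraries. A minimum of 10 UMIs with no CPM minimum, which changed both limits at once, gave 2585 and 2619 higher, 995 and 966 lower, and 906 higher and 697 lower between libraries. A minimum of 100 UMIs gave 491 and 493 higher, and 37 higher and 52 lower between libraries. At 2-fold 338 and 437 were higher and 132 and 119 lower, and 55 higher and 56 lower between libraries. The minimums and the fold set these last counts by construction; for the other settings the cause was not tested.

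Of the values of named genes at 1.5-fold or more, 146 kept their direction in all alternatives that gave a value, 2 did not, and 35 fell under 1.5-fold in at least 1. The exceptions in direction were Slpi between libraries, at -0.88 under the stricter gate, and Plac8 in the MCM/fl-labelled library, at 0.00426 among cells chosen for low Ly6c2, Chil3 and Plac8. Ctsk between libraries also turned, to -0.28 without the highest cell of each library, where it no longer passed the filter and so is not in these counts. No list median of 1.5-fold or more changed sign. Mitosis medians ranged from 4.81 to 5.67 and from 4.58 to 5.62, monocyte medians from -2.02 to -0.80 and from -2.28 to -0.91, and MHC class II medians from 0.34 to 1.75 and from 0.38 to 1.60. Genes with few UMIs are the least certain, since the 223 cycling cells of the MCM/fl-labelled library hold 1115000 thinned UMIs and 20 CPM is then under 30 UMIs. With 1 library per group the spread between animals is unknown.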

Other observations

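The added sequence eGFP was read in macrophage-gate cells: 93 UMIs in 65 cycling cells of the Tcf21-MCM/fl-labelled library and 262 UMIs in 107 of the Tcf21-MCM-labelled library, or 12.5 and 26.3 CPM of unthinned UMIs. Non-cycling cells had 24.4 and 24.5 CPM, and fibroblast-gate cells 670 and 1373 CPM.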
